A study of Mus musculus with 12 samples.

Results

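Replication-dependent histone genes supply the histones that package newly copied DNA. They were taken here as every gene of the count table whose GENCODE vM21 symbol begins with Hist1h, Hist2h, Hist3h or Hist4h, which gave 70 of 55421 genes. By histone type these were 6 H1 linker histone genes, 20 H2A, 19 H2B, 12 H3 and 13 H4 genes. By cluster, 56 were Hist1h genes on chromosome 13, 10 were Hist2h genes on chromosome 3, 3 were Hist3h genes on chromosome 11 and 1 was a Hist4h gene on chromosome 6. The annotation calls 67 of them protein coding and 3 pseudogenes, which were Hist1h2aj, Hist1h2al and Hist3h2bb-ps. In a messenger RNA preparation 66 of the 70 had at least 1 count in some library, but 45 reached 10 counts in any library and 7 reached 50.

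Replication-dependent histone messages are unusual among animal messenger RNAs in that most of them carry no poly(A) tail. They end instead just after a conserved stem-loop, which the protein SLBP binds, and they accumulate in S phase and are degraded when DNA synthesis stops. Some of these genes can also be read through the stem-loop to a downstream poly(A) signal, which gives a polyadenylated message that is not tied to S phase in the same way.

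The 12 libraries came from 2 mouse lines, with 3 libraries in each of 4 groups. PMJ2R is a peritoneal macrophage line whose genotype is labelled C57BL6J with the v-raf and v-myc oncogenes, so its controls carry both oncogenes too. ID8 is an ovarian epithelial cancer line labelled C57BL6J wildtype. The groups were PMJ2R with 5 nM rebastinib for 6 h, PMJ2R control, ID8 with 5 nM rebastinib for 6 h and ID8 control. Rebastinib is a kinase inhibitor known for its action on TIE2, the angiopoietin receptor. Both lines are labelled female, and each is 1 line. No label says that the libraries of a group came from separate cultures, so every p-value below measures only the spread between these libraries, which may be technical.

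Library totals ran from 19025504 to 27070556 counts. All 15 macrophage markers were higher, and all 12 ovarian surface epithelium and mesothelium markers lower, in PMJ2R control than in ID8 control libraries. Between 38.4% and 43.3% of all genes tested were called in each direction in either rebastinib comparison. Some shares of the counts moved with rebastinib, and why they moved was not tested. The ratios of the summed histone level are also given below without these genes. Genes overlapping ribosomal RNA took 5.63% to 5.99% of counts in PMJ2R rebastinib and 0.0927% to 0.172% in PMJ2R control libraries, and 1.05% to 1.6% in ID8 rebastinib and 0.106% to 0.355% in ID8 control libraries. Cytosolic ribosomal protein genes took 6.97% to 7.24% in PMJ2R rebastinib and 4.66% to 5.37% in PMJ2R control libraries, and 7.84% to 9.71% in ID8 rebastinib and 4.28% to 4.94% in ID8 control libraries. Mitochondrially encoded protein genes took 5.1% to 5.41% in PMJ2R rebastinib and 3.23% to 3.99% in PMJ2R control libraries, and 4.54% to 4.91% in ID8 rebastinib and 2.8% to 3.02% in ID8 control libraries.

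The 3' ends of the annotated transcripts show both ways in which a histone message can end. A stem-loop was found in an annotated transcript of 46 of the 70 members, in 8 forms that differ at a few bases. The most common form, shared by 26 genes of the H1, H2A, H2B and H3 types, is the one in Hist1h1c. The H4 genes have forms of their own, with GGCCCT or GGTCCT as the first arm. The stem-loops below, each with 5 bases on either side, stand for 5 of these forms. Capitals mark the paired arms, which are reverse complements of each other, and the lower-case bases between them are the loop.
Hist1h1c: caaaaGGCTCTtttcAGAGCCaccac
Hist1h3c: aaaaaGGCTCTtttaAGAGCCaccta
Hist1h3g: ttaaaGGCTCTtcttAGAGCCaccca
Hist1h4i: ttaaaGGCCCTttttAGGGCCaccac
Hist1h4b: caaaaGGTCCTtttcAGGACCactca
On GRCm38 these lie at chr13:23739507-23739532 on the plus strand (Hist1h1c), chr13:23745042-23745067 on the minus strand (Hist1h3c), chr13:23535884-23535909 on the plus strand (Hist1h3g), chr13:22040961-22040986 on the minus strand (Hist1h4i) and chr13:23757361-23757386 on the plus strand (Hist1h4b). All are in the 3' untranslated part of single-exon transcripts.

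A poly(A) signal, AATAAA or ATTAAA, lay within the last 40 bases of an annotated transcript of 17 members, and 14 of these 17 had a stem-loop as well. The sequences below show this signal in 4 of the 6 members with the highest mean level, in capitals with 10 bases on either side.
Hist1h1c: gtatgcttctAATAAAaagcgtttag
Hist1h4i: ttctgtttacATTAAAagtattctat
Hist2h2be: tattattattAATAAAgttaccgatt
Hist1h2ae: cagcttctccAATAAAtgggtcaatt
The Hist1h1c signal, at chr13:23740332-23740357 on the plus strand, begins 814 bases after the end of the stem-loop shown above. The Hist1h4i signal, at chr13:22040641-22040666 on the minus strand, begins 309 bases after its stem-loop. The Hist1h2ae signal, at chr13:23570529-23570554 on the minus strand, begins 123 bases after its stem-loop. Hist2h2be, at chr3:96223707-96223732 on the plus strand, has the signal 16 bases before its annotated end, and no stem-loop was found in its transcript.

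Most of the histone counts came from a few genes, among them Hist1h4i, Hist1h1c and Hist2h2be, which are annotated with such a signal. Over all 12 libraries the 70 members drew 18382 counts, and the 17 members with an annotated poly(A) signal took 63.3% of them. The 21 members whose transcripts end within 100 bases of a stem-loop with no signal took 8.76%. The 11 with a stem-loop, no signal and an end further away took 8.88%. Members with neither feature numbered 21 and took 19% of the counts, and Hist1h2bc, whose annotated transcripts hold neither, was the largest of these. Hist1h4i, Hist1h1c and Hist1h2bc together took 62.1% of the members' counts, and 69.1% with Hist2h2be. Of the 11642 counts of the 17 members with a signal, Hist1h4i had 4561, Hist1h1c 4499 and Hist2h2be 1283. Per kilobase of exon, the median level was 0.278 CPM over members with a signal and 0.421 CPM over those without. Their median exonic lengths were 1560 bases with a signal and 482 bases without. No count was seen in any library for 4 members, Hist1h2ba, Hist1h2bq, Hist1h2br and Hist2h3c1. A total of 0 over a group allows up to 3 counts, which is between 0.0398 and 0.0514 CPM in the 4 groups. Such limits cover counting error only.

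Counts were lowest for the members with the least sequence of their own, though the order differed once length was taken into account. Coding regions of the same histone type are nearly alike, and reads from shared stretches cannot be given to 1 gene. How the authors' counting treated such reads is not given in the sources used here, so the value of any single member may include or lack reads of its copies. For 19 members under 15% of their 50-base words occurred in no other gene. These 19 took 3.11% of the members' counts, with a median of 36 counts over the 12 libraries, and none was tested in a rebastinib comparison. The 17 members with 15% to 50% such words took 8.77%, with a median of 68 counts. The 34 members with at least 50% such words took 88.1%, with a median of 95 counts. Per kilobase of exon, the median levels of these 3 classes, from the least unique, were 0.294, 0.589 and 0.427 CPM. Their median exonic lengths were 411, 473 and 758.5 bases. Hist1h4i had 71.1%, Hist1h1c 91.5%, Hist1h2bc 69.4% and Hist2h2be 100% of its words to itself. Antisense gene models share exons with 23 members, which took 8.33% of the counts, and the strand setting of the counting is not known.

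**Figure D1:**
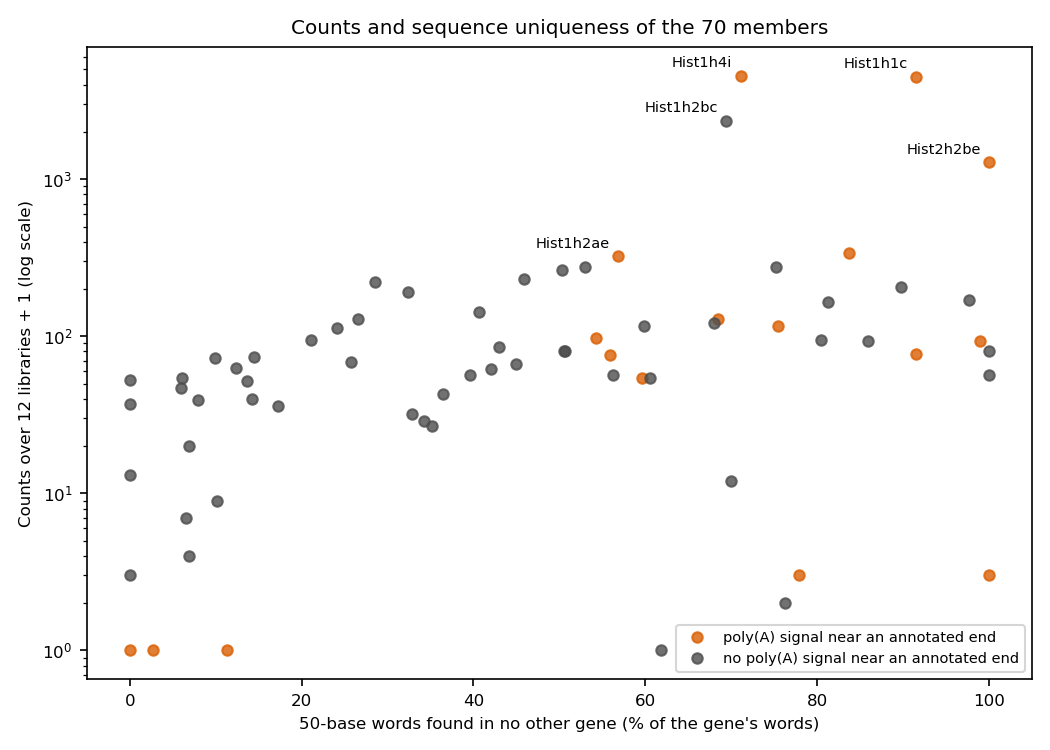
Each point is 1 of the 70 members, placed by the percent of its 50-base words found in no other gene (x axis) and by its counts summed over 12 libraries plus 1 (y axis, log scale), with members that have a poly(A) signal near an annotated end in orange. The 4 most abundant members have between 69.4% and 100% words of their own, and the 19 members under 15% took 3.11% of the counts.

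Summed over all members, the histone level was higher with rebastinib in both lines. The level is given as CPM, counts relative to the library's total, scaled by 1 set of TMM factors over all 12 libraries. It was 93.2, 95.2 and 98.4 CPM in the PMJ2R rebastinib libraries, against 32.5, 33.1 and 35.2 CPM in PMJ2R control libraries. In ID8 it was 105.4, 135.2 and 150.1 CPM with rebastinib, against 38.4, 42.9 and 47.7 CPM in control. In neither line did the groups overlap. The means were 95.6 ± 2.59 CPM in PMJ2R rebastinib and 33.6 ± 1.43 CPM in PMJ2R control libraries (SD, n = 3 each), a ratio of 2.84. They were 130.2 ± 22.8 CPM in ID8 rebastinib and 43 ± 4.67 CPM in ID8 control libraries (SD, n = 3 each), a ratio of 3.03. The raw counts go the same way, with 4605 in PMJ2R rebastinib against 2943 in PMJ2R control libraries and 7375 in ID8 rebastinib against 3459 in ID8 control libraries. With library totals as the only scaling the ratios were 2.02 in PMJ2R and 2.24 in ID8. With TMM factors and without mitochondrial, ribosomal protein and ribosomal RNA overlapping genes they were 2.87 in PMJ2R and 3.06 in ID8. These sums are a description of a small share of each library, between 0.0038% and 0.0128% of all counts. In such bulk libraries more cells holding a message and more message per cell cannot be told apart.

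**Figure D2:**
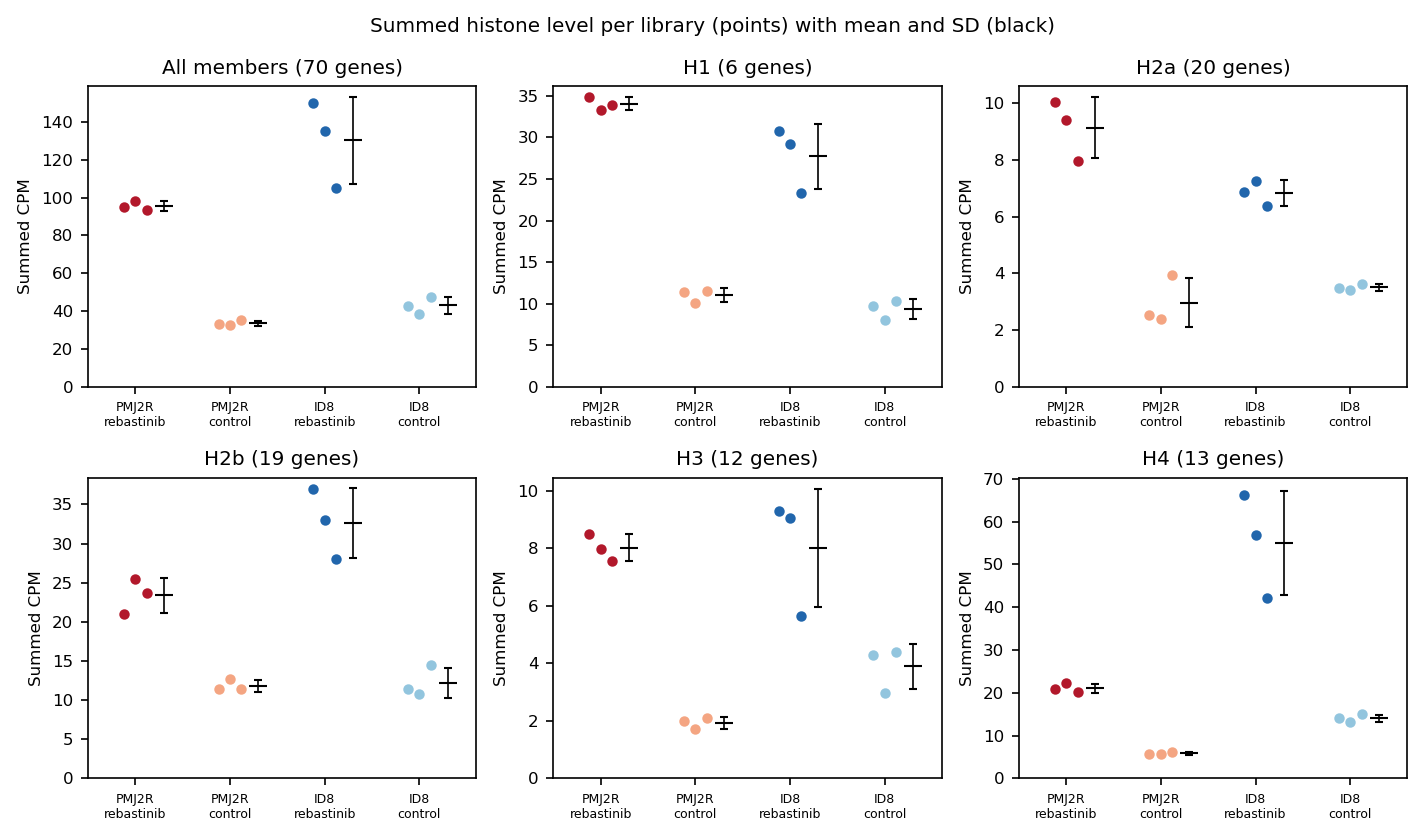
Points are the summed CPM of each library for all 70 members and for each histone type (y axes start at 0), with rebastinib left of control in each line, and black marks give the mean and SD of 3 libraries. Rebastinib libraries lie above control libraries in every panel, for example with means of 55 and 14 CPM for the H4 sum in ID8 and of 23.4 and 11.8 CPM for the H2B sum in PMJ2R.

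The sums of the 5 histone types differed in size of the ratio, but some of these sums rest mostly on 1 gene. Hist1h4i had 4561 of the 5760 counts of the H4 members, and Hist1h1c had 4499 of the 4928 counts of the H1 members. The H4 sum averaged 21 ± 1.07 CPM in PMJ2R rebastinib and 5.84 ± 0.347 CPM in PMJ2R control libraries, a ratio of 3.6, and 55 ± 12.2 CPM in ID8 rebastinib and 14 ± 0.859 CPM in ID8 control libraries, a ratio of 3.92 (SD, n = 3 each). The H1 ratio was 3.09 in PMJ2R and 2.96 in ID8. For H3 the ratio was 4.14 in PMJ2R and 2.06 in ID8, and for H2A it was 3.08 in PMJ2R and 1.95 in ID8. For H2B it was 1.97 in PMJ2R and 2.67 in ID8. Over the Hist1h genes of the H2B type alone, which leave out Hist2h2be, it was 2.82 in PMJ2R and 3.34 in ID8. By cluster, the Hist1h genes had ratios of 3.22 in PMJ2R and 3.31 in ID8. The 1 Hist4h gene had ratios of 3.27 in PMJ2R and 1.76 in ID8. It was tested in neither line, and its libraries overlapped between groups in both. It had 17 counts in PMJ2R rebastinib against 9 in PMJ2R control libraries, and 28 in ID8 rebastinib against 22 in ID8 control libraries. The Hist3h sum had ratios below 1, at 0.784 in PMJ2R and 0.411 in ID8, on 17 counts in PMJ2R rebastinib against 39 in PMJ2R control libraries and 18 in ID8 rebastinib against 66 in ID8 control libraries. Its libraries overlapped between groups in PMJ2R and did not in ID8. The Hist2h sum, of which Hist2h2be is most, had ratios of 1.47 in PMJ2R and 1.05 in ID8. Leaving out Hist1h4i, Hist1h2bc, Hist1h1c and Hist2h2be, the other 66 members summed to 33.6 to 34.9 CPM in PMJ2R rebastinib against 10 to 11.9 CPM in PMJ2R control libraries, and to 24.2 to 39.3 CPM in ID8 rebastinib against 13 to 16.5 CPM in ID8 control libraries. Without those 4 genes the rebastinib and control libraries still did not overlap in either line. The 53 members with no annotated poly(A) signal had ratios of 3.84 in PMJ2R and 2.73 in ID8, and the 17 with one had 2.45 in PMJ2R and 3.23 in ID8.

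In PMJ2R cells 21 members had enough counts to be tested, and 18 of them rose with rebastinib while 3 did not pass the test. edgeR's quasi-likelihood test was used, with Benjamini-Hochberg adjustment over all 14010 genes tested and a threshold of 0.05. Of all genes tested, 83.7% were called, 40.3% higher and 43.3% lower. No member was called lower, and the count was also 0 at an unadjusted p under 0.05 and with DESeq2. Of the 21 tested, 13 passed the expression filter through the rebastinib libraries alone, a way of passing that favours a difference. The other 8 passed in both groups, and 5 of these rose. The median log2 fold change was 1.86 over the members tested and -0.04 over all genes tested. The 49 members not tested summed to 10.1 to 13.1 CPM in rebastinib libraries and 3.42 to 4.17 CPM in control libraries.

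By counts over the 6 PMJ2R libraries the leading members were Hist1h1c with 2429, Hist1h4i with 1004, Hist2h2be with 829 and Hist1h2bc with 648. Hist2h2be did not pass the test and is described with the members called in neither line. The other 3 passed the filter in both groups and rose. Hist1h1c, an H1 linker histone gene, had 32.6, 31.8 and 30.6 CPM in rebastinib libraries and 11, 9.14 and 11 CPM in control libraries. Its log2 fold change was 1.68 ± 0.09 (SE, adjusted p = 2.32e-12 with edgeR). Hist1h4i, an H4 gene, had 13.4, 14 and 13.7 CPM with rebastinib against 3.78, 3.8 and 4.17 CPM in control. Its log2 fold change was 1.88 ± 0.11 (SE, edgeR adjusted p = 1.29e-11), with every rebastinib library above every control library. Hist1h2bc, an H2B gene, had 8.25, 10.4 and 8.97 CPM with rebastinib against 1.96, 2.75 and 2.21 CPM in control, a log2 fold change of 2.05 ± 0.15 (SE, edgeR adjusted p = 4.63e-10).

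Less abundant members with small p-values in PMJ2R were of the H2B, H3, H2A and H4 types. Of those named here, Hist1h2ae and Hist1h3g passed the filter in both groups, while Hist1h2bg, Hist1h3d, Hist1h4k, Hist1h3c and Hist2h3c2 passed through the rebastinib libraries alone, which favours a rise, so their values are given as a description. Hist1h2bg, an H2B gene, had 2.29, 2.7 and 2.61 CPM in rebastinib libraries and 0.291, 0.601 and 0.49 CPM in control libraries, a log2 fold change of 2.49 ± 0.27 (SE, edgeR adjusted p = 1.15e-07). Hist1h3d, an H3 gene, had 2.22, 2.7 and 2.23 CPM against 0.364, 0.601 and 0.56 CPM, a log2 fold change of 2.28 ± 0.27 (SE, edgeR adjusted p = 2.67e-07). Groups did not overlap for either gene. Hist1h4k, an H4 gene, rose by 1.86 ± 0.32 on the log2 scale (SE, edgeR adjusted p = 2.79e-05), with 28.5% of its words to itself. Hist1h2ae, Hist1h3c and Hist1h3g rose by 1.38, 1.65 and 1.72 on the log2 scale. Hist2h3c2, a Hist2h gene of the H3 type, had 9, 10 and 11 counts in rebastinib libraries and 2, 3 and 1 counts in control libraries, a log2 fold change of 3.15 ± 0.52 (SE, edgeR adjusted p = 2.17e-05). Hist2h3c1, 1 of the 2 genes that tie for the most words shared with it, had no count, and 36.5% of the words of Hist2h3c2 are in no other gene.

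Hist1h2al was seen in PMJ2R libraries alone. The annotation calls it a pseudogene of the H2A type, at chr13:51202727-51203065 on the minus strand of GRCm38, outside the stretch that holds the other Hist1h genes. It had 42, 48 and 50 counts in PMJ2R rebastinib libraries and 12, 12 and 26 counts in PMJ2R control libraries, a log2 fold change of 2.41 ± 0.28 (SE, edgeR adjusted p = 2.39e-07). It passed the filter through the rebastinib libraries alone. All 6 ID8 libraries had 0. Against the limit of 3 counts over a group of 3 libraries, its share of counts was at least 52.2-fold higher in PMJ2R rebastinib than in ID8 rebastinib libraries, and at least 15-fold higher in PMJ2R control than in ID8 control libraries. Only 32.4% of its words are in no other gene, and it shares exons with the antisense gene model Gm44341, so the source of these reads is uncertain.

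**Figure D3:**
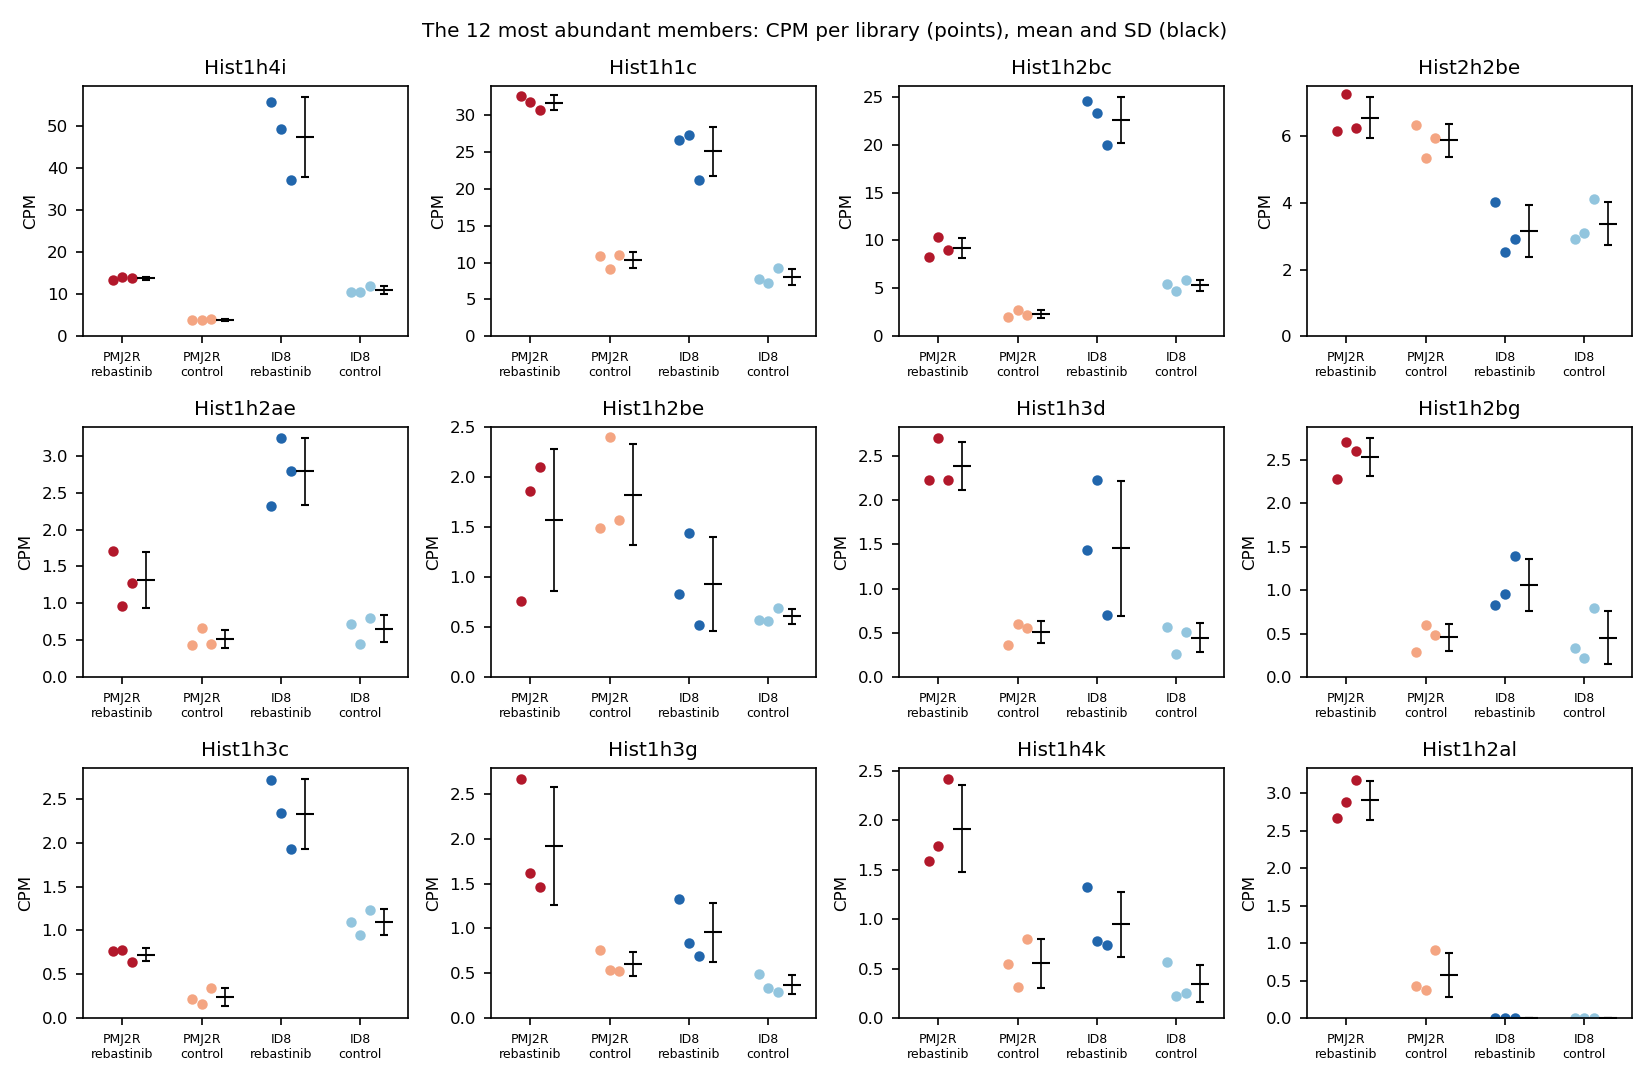
Points are the CPM of the 12 members with the highest mean level in each of 12 libraries (y axes start at 0 and differ between panels), with rebastinib left of control in each line, and black marks give the mean and SD of 3 libraries. Hist1h4i reaches 55.6 CPM in an ID8 rebastinib library, Hist2h2be shows overlapping groups in both lines, and Hist1h2al is at 0 in all ID8 libraries.

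In ID8 cells 23 members were tested, and 16 of them rose with rebastinib, 1 fell and 6 did not pass the test. Of the 14829 genes tested by edgeR, 80.4% were called, 38.4% higher and 42% lower. Of the 23 members, 10 passed the expression filter through the rebastinib libraries alone, 2 through the control libraries alone and 2 only over both groups together. Among the 9 that passed in both groups, 6 rose and 3 were not called. The median log2 fold change was 1.23 over the members tested and -0.07 over all genes tested. The 47 members not tested summed to 8.26 to 14.2 CPM in rebastinib libraries and 4.61 to 6.33 CPM in control libraries.

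Over the 6 ID8 libraries the leading members were Hist1h4i with 3557 counts, Hist1h1c with 2070, Hist1h2bc with 1715 and Hist2h2be with 454. The first 3 passed the filter in both groups and rose. Hist1h2bc had 24.5, 23.3 and 19.9 CPM in ID8 rebastinib libraries and 5.43, 4.68 and 5.86 CPM in ID8 control libraries, a log2 fold change of 2.08 ± 0.12 (SE, edgeR adjusted p = 1.63e-09). Hist1h4i had 55.6, 49.3 and 37.1 CPM with rebastinib against 10.5, 10.5 and 12 CPM in control, a log2 fold change of 2.11 ± 0.13 (SE, edgeR adjusted p = 3.53e-09). Hist1h1c had 26.6, 27.3 and 21.2 CPM against 7.71, 7.17 and 9.28 CPM, a log2 fold change of 1.64 ± 0.13 (SE, edgeR adjusted p = 2.56e-08). For all 3 genes the third rebastinib library was the lowest of its group, yet above every control library. Hist1h2ae, an H2A gene, had 2.32, 3.24 and 2.8 CPM with rebastinib and 0.721, 0.453 and 0.801 CPM in control libraries, a log2 fold change of 2.07 ± 0.26 (SE, edgeR adjusted p = 4.68e-06).

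Some members with fewer counts were also called higher in ID8. Of those named here, Hist1h3c passed the filter in both groups. The others passed through the rebastinib libraries alone, which favours a rise, so their values are given as a description. Hist1h4b, an H4 gene, and Hist1h2bb, an H2B gene, rose by 2.09 and 2.32 on the log2 scale. The H3 genes Hist1h3c, Hist1h3d and Hist1h3g rose by 1.08, 1.64 and 1.33. Hist1h2bg and Hist1h4k rose by 1.23 and 1.42, and these 2 calls were lost once trends with length and GC content were removed (0.85 with adjusted p = 0.0705, and 0.87 with adjusted p = 0.0535, both edgeR), with adjusted p from 0.00166 to 0.0931 for Hist1h2bg and from 0.00191 to 0.0609 for Hist1h4k over 15 alternatives each.

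The 1 member called lower was Hist3h2a, an H2A gene of the Hist3h cluster. It had 5, 9 and 2 counts in ID8 rebastinib libraries and 19, 26 and 19 counts in ID8 control libraries, a log2 fold change of -1.48 ± 0.47 (SE, edgeR adjusted p = 0.00938). The groups did not overlap, and it passed the filter through the control libraries alone. Without the third rebastinib library the log2 fold change was -0.95 (edgeR adjusted p = 0.0599, the highest of 15 alternatives, of which the lowest was 0.00173). Its annotated exon, at chr11:58954685-58956830 on GRCm38, overlaps exons of Trim17 on the same strand, so its counts cannot be told from reads of that gene in the shared stretch.

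**Figure D4:**
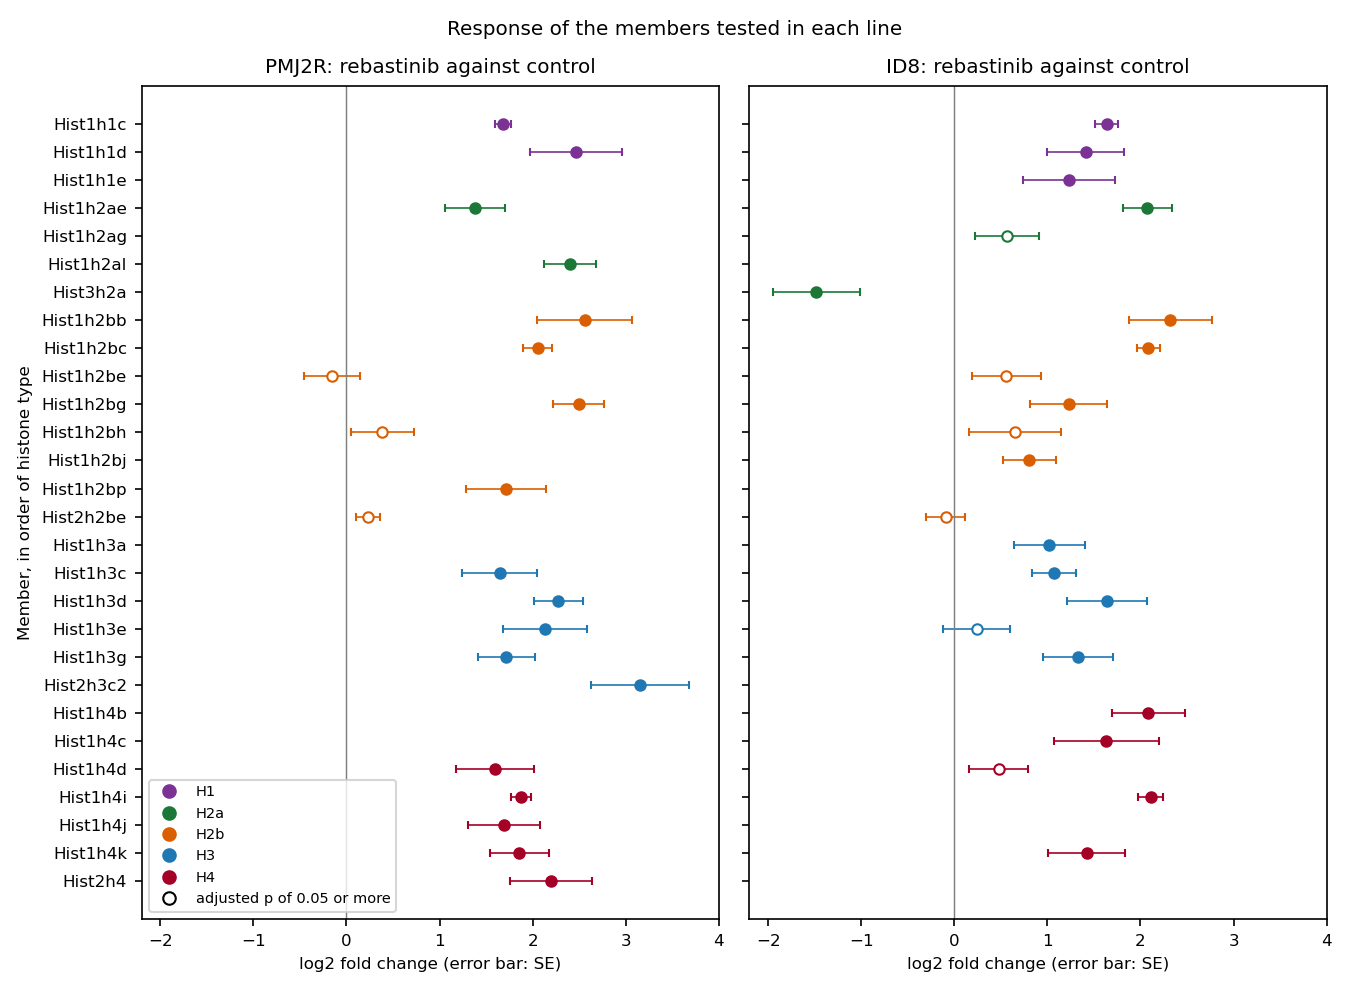
Points give the log2 fold change of rebastinib over control with its SE for each member tested in PMJ2R (left, 21 members) and in ID8 (right, 23 members), coloured by histone type, and open points did not pass an adjusted p of 0.05. Nearly all filled points lie between 0.81 and 3.15, Hist3h2a in ID8 is at -1.48, and Hist2h2be, Hist1h2be and Hist1h2bh are open in both lines.

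Of the 16 members tested in both lines, 11 rose in both, 2 rose in PMJ2R and were not called in ID8, and 3 were called in neither. Of all 12398 genes tested in both lines, 30.1% were higher in both. Of the 11 that rose in both, 4 passed the filter in both groups of both lines, Hist1h1c, Hist1h4i, Hist1h2bc and Hist1h2ae, and the other 7 did not in at least 1 line. Of 6 members that passed in both groups of both lines, these 4 rose in both and 2 were called in neither. The 3 called in neither are H2B genes, Hist2h2be, Hist1h2be and Hist1h2bh. Hist2h2be, the fourth most abundant member, had 6.16, 7.26 and 6.23 CPM in PMJ2R rebastinib libraries and 6.33, 5.35 and 5.95 CPM in PMJ2R control libraries, a log2 difference of 0.23 ± 0.13 (SE, edgeR adjusted p = 0.104). In ID8 it had 4.04, 2.52 and 2.93 CPM with rebastinib against 2.92, 3.1 and 4.11 CPM in control, a difference of -0.09 ± 0.21 (SE, edgeR adjusted p = 0.689). Its groups overlapped in both lines, and with library totals as the only scaling it was called lower in both, at -0.34 in PMJ2R and -0.52 in ID8 (edgeR adjusted p = 0.0216 and 0.029). Its adjusted p ran up to 0.923 in PMJ2R and 0.966 in ID8 over the alternatives. Hist1h2be differed by -0.15 ± 0.3 in PMJ2R and 0.56 ± 0.37 in ID8 (SE), and its exons are shared with Hist1h1e and Gm11398 on the same strand. Over 15 alternatives its adjusted p (edgeR or DESeq2) ran from 0.0343 to 0.809 in PMJ2R and from 0.0303 to 0.751 in ID8. Some setting thus called it in each line.

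The fold changes moved with the scaling and with gene length. With library totals in place of TMM factors, the median over all genes tested moved to -0.6 in PMJ2R and -0.5 in ID8, and the members' median to 1.3 in PMJ2R and 0.81 in ID8. All genes then split into 22.1% higher and 61.9% lower in PMJ2R, and into 23.9% higher and 57.1% lower in ID8, while the members split into 18 higher and 2 lower in PMJ2R and 11 higher and 2 lower in ID8. Short genes had higher values, with a median log2 fold change over all tested genes under 750 bases of 0.63 in PMJ2R and 0.73 in ID8, and over those above 6000 bases of -0.19 in PMJ2R and -0.31 in ID8. Over all 70 members, most of them untested, the median exonic length was 532 bases. The tested members ran from 312 bases (Hist1h4k) to 7425 bases (Hist1h1d), and their median length lay above 750 bases in each line. Over all tested genes in the length class that starts at 750 bases, the median log2 fold change was 0.31 in PMJ2R and 0.47 in ID8. After per-library trends with length and GC content were removed, the members' median was 1.68 in PMJ2R with 18 higher, and 0.87 in ID8 with 12 higher and 1 lower, beside 0.14 in PMJ2R and 0.19 in ID8 over all genes.

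The difference of the response between the lines was tested as an interaction over all 12 libraries. Of 16566 genes tested by edgeR, 52.4% were called, 21.8% with a more positive log2 change in PMJ2R and 30.6% with a more negative one. Of 30 members tested, 2 were called, both with the more positive change in PMJ2R. No member was called with the more negative change there, and this count was also 0 at an unadjusted p under 0.05 and with DESeq2. Hist1h3e, an H3 gene, had 0.762, 0.66 and 1.08 CPM in PMJ2R rebastinib and 0.146, 0.0949 and 0.35 CPM in PMJ2R control libraries, and 0.72, 0.54 and 0.437 CPM in ID8 rebastinib and 0.417, 0.453 and 0.546 CPM in ID8 control libraries. Its change was larger in PMJ2R by 1.83 ± 0.6 on the log2 scale (SE, edgeR adjusted p = 0.0129). Without the second PMJ2R control library the difference was 1.47 (edgeR adjusted p = 0.0538, the highest of 20 alternatives, of which the lowest was 0.00261). Hist2h3c2 had 0, 2 and 0 counts in ID8 rebastinib and 2, 0 and 2 counts in ID8 control libraries, beside the PMJ2R counts given above, and its difference was 3.55 ± 1.43 (SE, edgeR adjusted p = 0.0408). That call was lost with DESeq2 (adjusted p = 0.0593) and when any of 9 of the 12 libraries was left out (edgeR adjusted p from 0.0539 to 0.16), and it rests on few reads. Its adjusted p ran from 0.00878 to 0.16 over 20 alternatives. For the 3 most abundant members over all libraries the differences were -0.29 ± 0.18 (Hist1h4i), -0.02 ± 0.16 (Hist1h1c) and -0.09 ± 0.21 (Hist1h2bc) on the log2 scale (SE), none of which passed the test. For Hist1h4i the adjusted p (edgeR or DESeq2) ran from 0.0113 to 0.587 over 21 alternatives, so some setting called it.

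Between the control groups, members were called in both directions. Of 17 members tested by edgeR, 4 were higher and 7 lower in PMJ2R control libraries. Of all 15924 genes tested, 82.3% were called, 39.4% higher and 42.9% lower, and the members' share of lower calls is near that. Of the 7 lower, Hist1h4i and Hist1h2bc passed the filter in both groups and the other 5 through the ID8 libraries alone. The summed level was 33.6 ± 1.43 CPM in PMJ2R control and 43 ± 4.67 CPM in ID8 control libraries (SD, n = 3 each), and the groups did not overlap. Hist1h4i was lower, at 3.78 to 4.17 CPM in PMJ2R control against 10.5 to 12 CPM in ID8 control libraries, a log2 difference of -1.6 ± 0.11 (SE, edgeR adjusted p = 7.15e-11). Hist1h2bc differed by -1.31 ± 0.16, and Hist1h2bj, another H2B gene, by -3.19 ± 0.43. Hist1h4d, Hist1h3c, Hist1h3e and Hist3h2a were lower by 2.34, 2.28, 1.37 and 1.05 on the log2 scale in PMJ2R, and DESeq2 did not call Hist1h3e or Hist3h2a. Without the second PMJ2R control library neither was called, at -1.02 (Hist1h3e) and -0.68 (Hist3h2a), and Hist3h2a was not called without the first PMJ2R control or the second ID8 control library either. Over 15 alternatives each, the adjusted p ran from 0.000797 to 0.064 for Hist1h3e and from 0.000225 to 0.103 for Hist3h2a.

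The members higher in PMJ2R control cells were Hist1h2al, which passed the filter through the PMJ2R libraries alone, and Hist1h2be, Hist2h2be and Hist1h1c. Hist2h2be had 5.35 to 6.33 CPM in PMJ2R control and 2.92 to 4.11 CPM in ID8 control libraries, a log2 difference of 0.68 ± 0.15 (SE, edgeR adjusted p = 0.000239). Hist1h2be differed by 1.48 ± 0.27. Hist1h1c differed by 0.25 ± 0.11 (SE, edgeR adjusted p = 0.0483), with overlapping groups, and this call was lost under RLE size factors (adjusted p = 0.0733 with edgeR) and with DESeq2 (adjusted p = 0.18), with a range from 2.23e-05 to 0.26 over 16 alternatives. Per kilobase of exon, Hist1h1c at 6.64 CPM was above Hist1h4i at 5.39 CPM in PMJ2R control libraries, while Hist1h4i at 15.1 CPM was above Hist1h1c at 5.16 CPM in ID8 control libraries.

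Genes that act on histone messages did not move as one. SLBP binds the stem-loop and is needed for its processing and translation. Slbp differed by -0.18 ± 0.05 in PMJ2R (SE, edgeR adjusted p = 0.00319), with 75 to 78.1 CPM in rebastinib and 89.6 to 92 CPM in control libraries, and by 0.07 ± 0.07 in ID8 (adjusted p = 0.373). Of 21 listed genes of histone message processing and transcription that were tested, 6 were higher and 12 lower in PMJ2R, and 6 higher and 9 lower in ID8. The shares over all genes tested were 40.3% higher and 43.3% lower in PMJ2R, and 38.4% higher and 42% lower in ID8. Hinfp, a zinc finger factor of H4 gene promoters, fell by 1.44 in PMJ2R and by 0.84 in ID8 on the log2 scale. Cpsf2, a subunit of the 3' end cleavage machinery, fell by 1.21 in PMJ2R and by 0.98 in ID8. Snrpd3, an Sm protein shared by splicing particles and the U7 particle that processes histone messages, rose by 0.93 in PMJ2R and 1.74 in ID8, and Ncbp1, the large subunit of the cap-binding complex, rose by 0.76 in PMJ2R and 0.93 in ID8.

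Histone variant genes, whose messages are polyadenylated and made outside S phase as well, went both ways. Of 11 tested in PMJ2R 4 were higher and 4 lower, and of 10 tested in ID8 5 were higher and 5 lower. Over all genes tested, 40.3% were higher and 43.3% lower in PMJ2R, and 38.4% higher and 42% lower in ID8. Going both ways is thus not particular to the variants. H3f3b, a gene for histone H3.3, had 67.6, 68.6 and 70.8 CPM in PMJ2R rebastinib libraries against 214, 209 and 212 CPM in PMJ2R control libraries, and it fell by 1.55 in PMJ2R and by 1.12 in ID8 on the log2 scale. H1f0, the H1.0 linker histone gene, fell by 1.23 in PMJ2R and by 1.78 in ID8. H3f3a, the other H3.3 gene, rose by 0.87 in PMJ2R and 0.49 in ID8. H2afj, an H2A variant gene, had 232, 222 and 215 CPM in PMJ2R rebastinib against 95.4, 97.2 and 101.3 CPM in PMJ2R control libraries, and it rose by 1.26 in PMJ2R and 1.49 in ID8. Per kilobase of exon, H2afz stood at 249 CPM in PMJ2R rebastinib and 196 CPM in PMJ2R control libraries, while Hist1h4i stood at 18.9 CPM in PMJ2R rebastinib and 5.39 CPM in PMJ2R control libraries.

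Most genes of S phase and DNA replication fell in PMJ2R, where most tested histone members rose. Of those 21 members, 13 passed the filter through the rebastinib libraries alone, which favours a rise. Among the 8 that passed in both groups, 5 rose. Of 33 S-phase and replication genes tested, 29 were lower and 1 higher in PMJ2R, with a median log2 fold change of -0.97. In ID8 16 of them were lower and 9 higher, with a median of -0.13. Beside these, 43.3% of all genes tested were lower and 40.3% higher in PMJ2R, and 42% lower and 38.4% higher in ID8. Uhrf1, a reader of hemimethylated DNA at replication forks, had 49, 51.8 and 54.7 CPM in PMJ2R rebastinib against 283, 305 and 305 CPM in PMJ2R control libraries. It fell by 2.45 in PMJ2R. Mcm10, a replication initiation factor, fell by 3.65 in PMJ2R and by 2.85 in ID8, and Rrm2, a subunit of ribonucleotide reductase, fell by 1.75 in PMJ2R and by 1.3 in ID8 on the log2 scale. Of 23 histone chaperone genes 11 were higher and 9 lower in PMJ2R, and 13 higher and 7 lower in ID8, beside the same shares over all genes. Chaf1a, the large subunit of the chromatin assembly factor that loads histones at forks, fell by 2.4 in PMJ2R and by 1.38 in ID8.

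**Figure D5:**
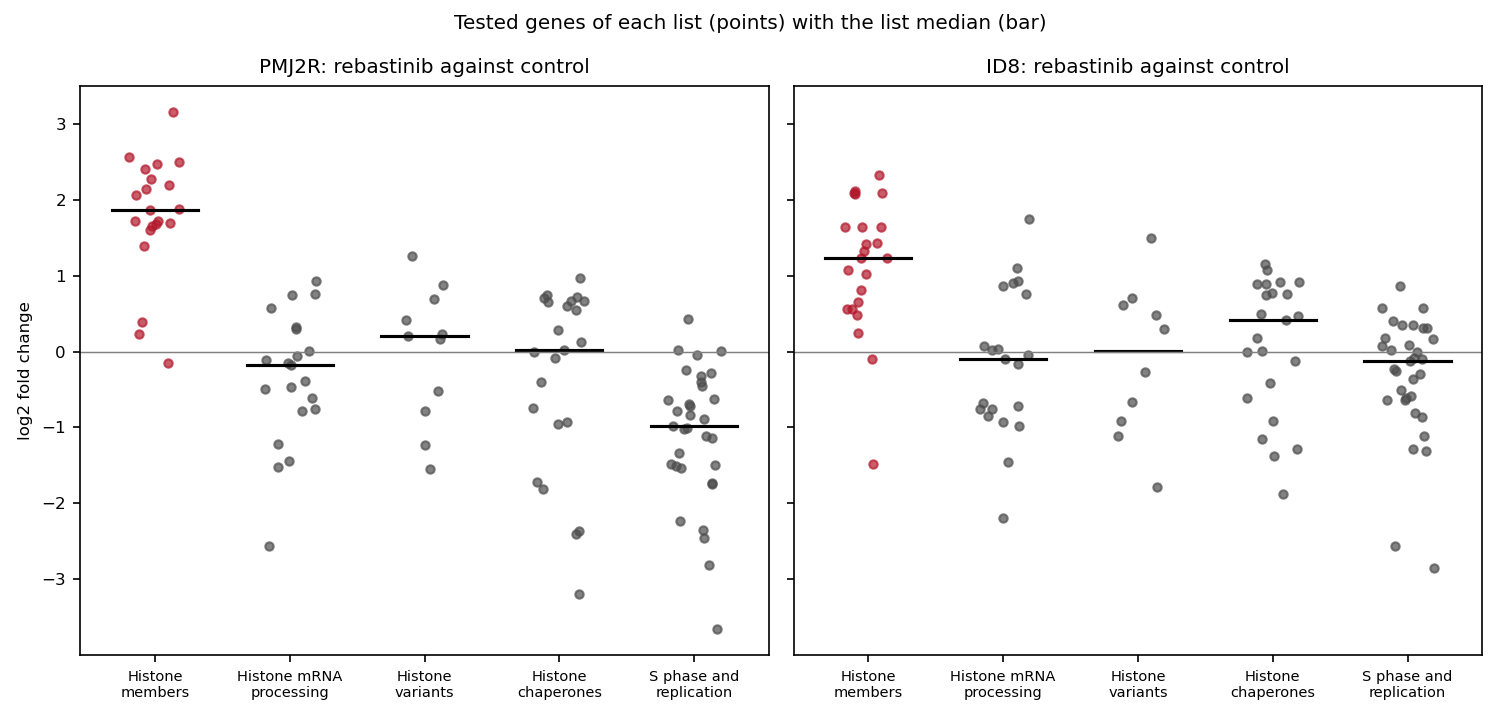
Each point is the log2 fold change of rebastinib over control of 1 tested gene in PMJ2R (left) and ID8 (right), for the histone members (red) and 4 lists of related genes, and black bars are the medians. The histone members have medians of 1.86 in PMJ2R and 1.23 in ID8, and the S-phase and replication genes -0.97 in PMJ2R and -0.13 in ID8. Of the members, 13 of 21 in PMJ2R and 10 of 23 in ID8 passed the filter through the rebastinib libraries alone, which favours a rise.

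The members also share promoter letters that their choice did not use. RefSeq's promoters (GRCm38.p6) held an entry for 62 of the 70, of which the 250 bases before the start were searched on both strands. TATAAA was found in 46.8% of these and in 13% of all 27025 promoters. CCAAT was found in 82.3% and in 34.5%. ATTTGCAT, the octamer letters, was found in 21% and in 1.61%, and these were 7 of 18 H2A and 6 of 16 H2B promoters. CCAAT was in all 6 H1, all 18 H2A and all 16 H2B promoters, in 8 of 10 H3 promoters and in 3 of 12 H4 promoters. For 36 of the 62 entries, bases just after the start were found in an annotated transcript of the member. The starts of the other entries were not borne out in this way. Of the 62 entries 20 overlap the entry of another member, so they are not independent. A match is a description of letters and not of a factor at work. The 120 bases before the start of 3 members that rose in PMJ2R and ID8 are given, with any of the 3 motifs in capitals.
Hist1h1c: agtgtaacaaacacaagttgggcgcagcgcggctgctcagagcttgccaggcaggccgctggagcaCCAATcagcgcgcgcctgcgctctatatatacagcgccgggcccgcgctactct
Hist1h2bg: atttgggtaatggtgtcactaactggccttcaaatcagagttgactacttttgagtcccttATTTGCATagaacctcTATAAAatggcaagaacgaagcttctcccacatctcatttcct
Hist1h4i: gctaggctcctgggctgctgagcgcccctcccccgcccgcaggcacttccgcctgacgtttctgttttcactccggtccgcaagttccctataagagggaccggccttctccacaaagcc
They lie at chr13:23738687-23738806 on the plus strand, chr13:23571280-23571399 on the plus strand and chr13:22041363-22041482 on the minus strand.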

How the data were processed

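Messenger RNA of 12 libraries was measured. The values used are the counts per gene that the authors deposited, whole numbers for 55421 Ensembl genes. FastQC, STAR 2.6.1c, featureCounts, DESeq2 and GRCm38 are named in the submitters' processing notes. No source used here gives the annotation, the strand setting or how reads with several matches were counted. The count table held no column beyond these 12 libraries, all of them control or rebastinib, so no chemotherapy arm could be analysed here.

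Gene symbols, exons and transcript sequences came from GENCODE vM21 (GRCm38), and promoters from RefSeq's table. The members and gene lists were chosen with earlier results of these data known. Levels are CPM with TMM factors over 12 libraries, which ran from 0.823 to 0.916 in rebastinib and from 1.14 to 1.2 in control libraries. Tests used edgeR 4.0.16 in R 4.3.3 (filterByExpr with a minimum count of 10, TMM within the fit, robust quasi-likelihood, Benjamini-Hochberg adjustment at 0.05) on each comparison's own groups and on every gene. The SE is the log2 fold change divided by the square root of F. Alternatives used RLE factors, library totals, DESeq2 1.42.0, other filters, a replicate block, removal of length and GC trends with mgcv 1.9.3, and each library left out. No 2 libraries agreed within sampling noise (chi-square per degree of freedom from 1.72 to 23.5).

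Members named are the 12 with the highest mean CPM, up to 8 per direction with the smallest p in each comparison, and up to 4 genes per list. Slbp, the H2afz level and the remaining members named were added after their values were seen. The fits were tested on simulated counts with few genes changed. False calls made up 3.41% of calls in PMJ2R, 7.85% in ID8, 10.6% between controls and 0.87% for the difference between responses. Of 2-fold changes in tested genes, 91.5%, 89.7%, 98.5% and 57.6% were recovered, in the same order. A member not called for the difference between responses may thus still differ. Library totals limit single low-count members most, since 1 count in a library is between 0.0316 and 0.0636 CPM.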

Additional observations from a re-analysis of the deposited data

Results flagged for a closer look

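The response to rebastinib differed between the lines, by an interaction test over 12 libraries (edgeR), for 2 members. The log2 change was larger in PMJ2R than in ID8 by 1.83 for Hist1h3e and by 3.55 for Hist2h3c2, on the low counts given above.

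Of the related genes called by the same test, the 4 with the smallest p in each of 4 lists are given. Among genes of histone message processing, the PMJ2R change minus the ID8 change was -0.877 for Snrpd3, -0.643 for Upf1, -0.561 for Cpsf3 and -0.514 for Srrt. Among histone variant genes it was -0.495 for H3f3b, -0.605 for H2afv, 0.491 for H1f0 and 0.32 for H3f3a. Among histone chaperone genes it was -1.97 for Tonsl, -1.08 for Chaf1a, -1.0 for Nasp and -1.51 for Chaf1b. Among S-phase and replication genes it was -1.71 for Uhrf1, -1.42 for Mcm6, -1.78 for Ccne2 and -1.19 for Lig1. A more negative log2 change in PMJ2R was called for 26 of the 33 S-phase and replication genes, 16 of the 23 chaperone genes, 11 of the 21 processing genes and 4 of the 11 variant genes tested, beside 30.6% of all genes tested. A more positive one was called for 2 of the processing genes, 2 of the variant genes and 0 of the S-phase and chaperone genes, beside 21.8% of all genes tested.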

How the results depend on the processing

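Counts of members called moved with the filter on low values, and with DESeq2, which changes the test, the size factors and the filter together. In PMJ2R 29 were higher with DESeq2, 33 with no filter and 3 above 5 CPM, and 2 were lower with library totals. In ID8 DESeq2 did not call Hist1h1e, Hist1h2bj and Hist1h3a, which edgeR called, 3 were higher and 0 lower above 5 CPM, and 2 were lower with library totals. The difference between the lines' responses had 0 members higher above 5 CPM. Between the controls, 5 CPM left 1 higher and 1 lower, while DESeq2 called 12 lower and no filter 21. With 1 library left out, members higher numbered 18 to 21 in PMJ2R and 13 to 20 in ID8, and 0 to 1 were lower in ID8. The difference between responses then had 1 to 3 higher and 0 to 1 lower, and the controls 3 to 4 higher and 6 to 9 lower.

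Library totals put the summed level at 78.81 CPM in PMJ2R rebastinib, 39.08 CPM in PMJ2R control and 50.93 CPM in ID8 control libraries. Without mitochondrial, ribosomal protein and ribosomal RNA overlapping genes these were 110.0, 38.36 and 48.94 CPM. At 50 counts in a library 7 members were detected.

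Signs turned for members whose difference was not called, and for Hjurp. Hist2h2be turned in PMJ2R with library totals (-0.3353) and in ID8 with 1 library left out (-0.2891 to 0.06786). Hist1h2be turned in PMJ2R with length and GC trends removed (0.07882, and 0.07315 with the block) and with 1 library left out (-0.3949 to 0.1703). For the difference between responses, Hist1h1c turned under RLE (0.1072), DESeq2 (0.1005), 5 CPM (0.06313) and trends removed (0.1794, and 0.1803 with the block), and with 1 library left out ran from -0.1371 to 0.05277. Hist1h2bc turned there under RLE (0.02975) and DESeq2 (0.02715), and with 1 library left out ran from -0.2061 to 0.05092, while Hist1h4k ran from -0.1587 to 0.7245. Between controls Hist1h2bg turned with all 12 libraries in 1 fit (0.01993) and ran from -0.4233 to 0.5716 with 1 left out, and Hist1h3d from -0.198 to 0.2744. Hjurp, lower by edgeR at -0.6956, was at 0.006696 with trends removed and 0.00673 with the block as well. The cause was not tested.

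Replicate numbers share only a number, since same-numbered libraries correlated between -0.167 and 0.066. With the replicate block 18 members were higher in PMJ2R and 15 in ID8, and the Hist2h3c2 difference between responses was 3.542 and no longer called (edgeR adjusted p = 0.0882). Members with a few counts per library were left untested by the filter, and some of them were called with DESeq2 or with no filter.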
